A study of Rattus norvegicus with 18 samples.

Results

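The genes described here are the 10 histone deacetylases Hdac1 to Hdac10, chosen by name as the features of the array whose platform gene symbol is exactly one of these symbols. All 10 were found among the 22093 genes tested, and where a gene had several features the one with the highest mean was used. Expression was measured in the nucleus accumbens (ventral striatum) of 18 rats (male, Sprague-Dawley), 6 in each group, with an Affymetrix whole-transcript array for each. The experiment concerns methamphetamine self-administration with footshock as the adverse consequence, and its groups are named shock resistant, shock sensitive and control. Under this kind of punishment, resistant animals go on self-administering methamphetamine and sensitive animals cut their intake. The sources used here give neither the age of the rats nor what the controls received, and no allele, transgene or pooling of animals is named for any group. The rats of each group were selected on RNA quality, and precision is limited by having 6 arrays in each.

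Histone deacetylases remove acetyl groups from lysines of histones and other proteins, and on chromatin this generally goes with repression of transcription. Class I enzymes (Hdac1, Hdac2, Hdac3 and Hdac8) are mostly nuclear, and Hdac1 and Hdac2 form the catalytic core of the SIN3, NuRD and CoREST co-repressor complexes while Hdac3 works in the NCoR and SMRT complex. Class IIa enzymes (Hdac4, Hdac5, Hdac7 and Hdac9) have little deacetylase activity of their own, bind MEF2 transcription factors and leave the nucleus when calcium-dependent and other kinases phosphorylate them. Class IIb holds Hdac6, a cytoplasmic tubulin deacetylase, and Hdac10, a polyamine deacetylase. In mice, Hdac5 in the nucleus accumbens limits behavioural responses to cocaine.

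Values are on the log2 scale as deposited, and a difference is the mean of one group minus that of the other. The median feature of an array read 5.43 to 5.56, and Pearson r between arrays was 0.992 to 0.997 over the features of the array, which are no replicates. The median of 1153 negative control features was 6.37. Of the 10 genes only Hdac7 had a mean below it. The mean of 19 medium spiny neuron markers, which include Drd1, Drd2 and Ppp1r1b and mark the projection neurons of the striatum, was 12.18 ± 0.25 in the shock-resistant group, 11.67 ± 0.56 in the shock-sensitive group and 11.87 ± 0.56 among controls (SD, n = 6 each). Shock-sensitive replicate 4 had the lowest mean (10.71) and control replicate 1 the next lowest (10.78). The same 2 arrays had the highest means of 10 hypothalamic or septal neuron markers, 9.58 and 9.24, beside 7.17 to 8.29 on the other arrays. Of those 10 markers 4 were below the negative control median. Whether tissue next to the nucleus accumbens entered these samples was not tested. Shock-resistant replicate 4 stood apart in its choroid plexus markers, whose mean read 8.83 there and 5.22 to 5.81 on the other 17 arrays. Without it the differences given below for shock-resistant rats against controls were −0.29 for Hdac1 and 0.18 for Hdac10. In bulk tissue, fewer cells of a type and less RNA per cell cannot be told apart.

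No histone deacetylase passed limma's adjusted threshold of 0.05 over all genes in any comparison. In shock-resistant rats against controls Hdac10 stood 1.14-fold higher, and Hdac1 stood 1.20-fold and Hdac8 1.13-fold lower. These 3 of 10 genes had an unadjusted p under 0.05. Hdac1 was also 1.18-fold lower in shock-resistant than in shock-sensitive rats, a difference of −0.24 on the log2 scale that was −0.13 with the mean of medium spiny neuron markers as a covariate. Shock-sensitive rats differed from controls by no more than 0.099 on the log2 scale in any of the 10 genes. Over all genes, 11.4% had an unadjusted p under 0.05 in shock-resistant rats against controls and 0.0181% passed after adjustment, and the 10 genes had 3 and 0. Among the 11573 genes at or above the negative control median, as 9 of the 10 were, the unadjusted share was 9.46%.

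**Figure D1:**
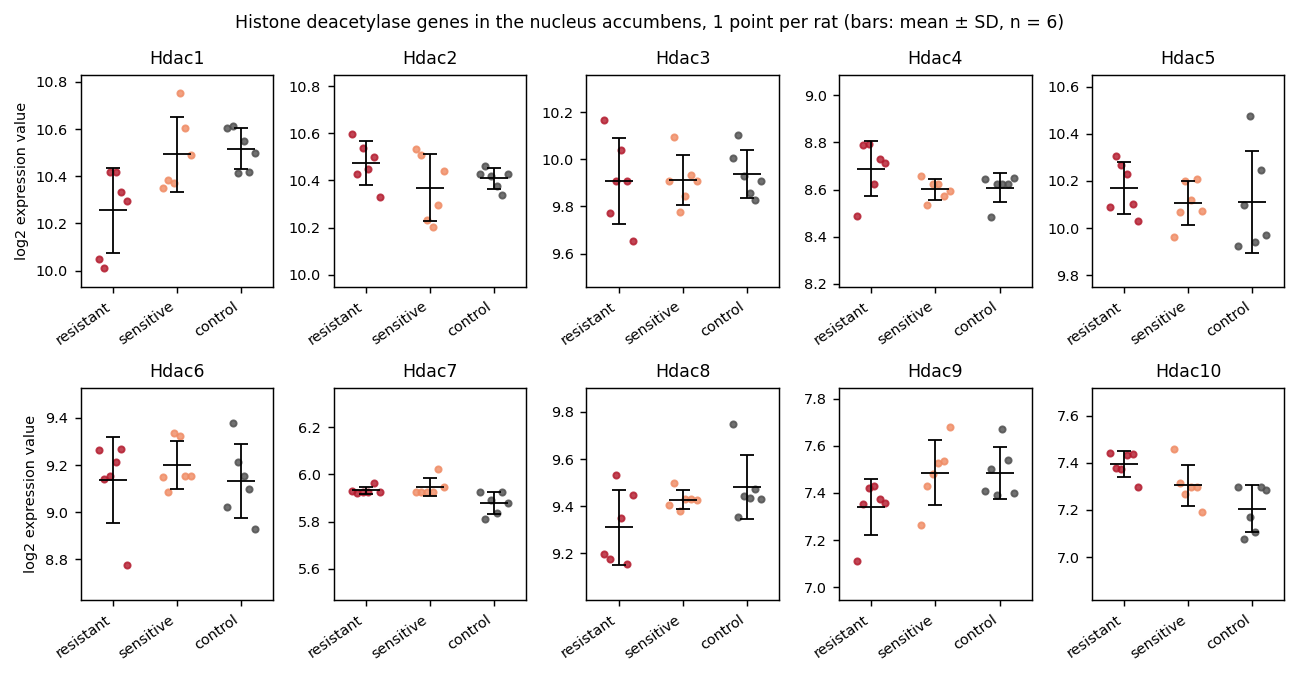
Log2 expression values of the 10 histone deacetylase genes, with 1 panel per gene, 1 point per rat, and the mean ± SD of each group of 6 as bars. Every panel spans the same log2 range. All 6 shock-resistant rats lie below the control median of Hdac1 and above that of Hdac10, and the groups touch or overlap in every panel.

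Hdac1, a catalytic subunit of nuclear co-repressor complexes, had values of 10.01, 10.32 and 10.42 (lowest, median and highest) in the shock-resistant group, 10.35, 10.44 and 10.75 in the shock-sensitive group and 10.42, 10.52 and 10.61 among controls. All 6 shock-resistant arrays lay below the medians of both other groups. Of them, 4 lay below every control and 4 below every shock-sensitive array. The means were 10.25 ± 0.18, 10.49 ± 0.16 and 10.52 ± 0.09 in the same group order (SD, n = 6 each). Against controls the difference in shock-resistant rats was −0.26 ± 0.083 (SE, 95% interval −0.44 to −0.09, limma adjusted p = 0.296). Against shock-sensitive rats it was −0.24 (interval −0.41 to −0.06, limma adjusted p = 0.753), or −0.13 with the marker covariate, where its unadjusted p was no longer under 0.05. Shock-sensitive rats differed from controls by −0.02 (interval −0.20 to 0.15, limma adjusted p = 0.977).

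Hdac10, the polyamine deacetylase, stood higher in shock-resistant rats. Its lowest, median and highest values were 7.30, 7.41 and 7.44 in the shock-resistant group, 7.19, 7.30 and 7.46 in the shock-sensitive group and 7.08, 7.23 and 7.30 among controls. The control median was exceeded by all 6 shock-resistant arrays and the highest control by 5, while the lowest shock-resistant value equalled the highest control value. The means were 7.39 ± 0.06 in shock-resistant rats and 7.21 ± 0.10 in controls (SD, n = 6 each), a difference of 0.19 ± 0.051 (SE, interval 0.08 to 0.30, limma adjusted p = 0.269). Shock-sensitive rats averaged 7.30 ± 0.09, which was 0.099 above controls (interval −0.008 to 0.21, limma adjusted p = 0.814). Shock-resistant rats stood 0.089 above shock-sensitive rats (interval −0.018 to 0.20, limma adjusted p = 0.79).

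The promoters of Hdac1 and Hdac10 are shown because these 2 genes had the smallest p of the family and differed in opposite directions. The windows are the 250 bases before each gene's start in RefSeq (build GRCr8), at chr5:147165388-147165637 and chr7:122083847-122084096, both on the minus strand. All 10 genes were matched to such a window. Capitals mark the GC box (GGGCGG) and the CCAAT box (CCAAT), each searched on both strands, and matches of the GC box may overlap one another.
Hdac1: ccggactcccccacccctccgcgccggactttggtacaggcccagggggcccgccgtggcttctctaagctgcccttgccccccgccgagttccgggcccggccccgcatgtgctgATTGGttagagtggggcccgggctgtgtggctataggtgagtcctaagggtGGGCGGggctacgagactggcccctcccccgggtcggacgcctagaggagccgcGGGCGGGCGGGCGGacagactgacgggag
Hdac10: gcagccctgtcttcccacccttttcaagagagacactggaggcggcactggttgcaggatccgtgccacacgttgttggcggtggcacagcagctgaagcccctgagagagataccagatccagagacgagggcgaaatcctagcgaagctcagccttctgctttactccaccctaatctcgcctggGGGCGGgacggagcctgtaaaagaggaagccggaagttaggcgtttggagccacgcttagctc
The Hdac1 window held 4 GC boxes and 1 CCAAT box at a GC content of 72.4%, and the Hdac10 window 1 GC box and 0 CCAAT boxes at 58.8%. The median GC content of all 33469 windows was 51.2%. These windows outnumber the 22093 genes tested and were not matched to the 10 genes in GC content or expression. A GC box lay in 7 of the 10 windows and in 30.5% of all windows. A CCAAT box lay in 5 of the 10 and in 34.0% of all. The E-box CACGTG, which MYC and clock factors can bind, was found in the Hdac5 window alone among the 10 and in 5.59% of all windows. The cyclic AMP response element TGACGTCA was found in 0 of the 10 and in 1.59% of all. Hdac8 and Hdac9 had windows of low GC content, 38.8% and 34.4%, with 0 GC boxes each. These matches describe the letters of the windows alone.

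Among the other class I genes, Hdac8 had a lower mean in shock-resistant rats. Its lowest, median and highest values were 9.16, 9.27 and 9.53 in the shock-resistant group, 9.38, 9.43 and 9.50 in the shock-sensitive group and 9.35, 9.44 and 9.75 among controls. Of the shock-resistant arrays 4 lay below every array of both other groups, and the other 2 lay within the control range. The difference in shock-resistant rats against controls was −0.17 ± 0.070 (SE, interval −0.32 to −0.02, limma adjusted p = 0.374), and −0.12 without control replicate 1, the highest array. A second Hdac8 feature gave −0.13 for the same comparison and correlated with the first at 0.881 over the 18 arrays. Shock-resistant rats differed from shock-sensitive rats by −0.12 and shock-sensitive rats from controls by −0.052 (limma adjusted p = 0.794 and 0.946), and the −0.12 was −0.05 with the marker covariate. Control replicate 1, the highest in Hdac8, had the next to lowest medium spiny neuron mean, 10.78. Pearson r of Hdac8 with that mean was −0.63, 0.09 and −0.91 within shock-resistant, shock-sensitive and control rats (exact permutation p adjusted to 0.86, 0.97 and 0.57).

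Hdac2, the close paralogue of Hdac1, had its highest mean in shock-resistant rats, though no difference passed. The lowest, median and highest values of Hdac2 were 10.33, 10.47 and 10.60 in the shock-resistant group, 10.20, 10.37 and 10.53 in the shock-sensitive group and 10.34, 10.42 and 10.46 among controls. Shock-resistant rats differed by 0.065 from controls and by 0.10 from shock-sensitive rats (intervals −0.06 to 0.19 and −0.02 to 0.23, limma adjusted p = 0.681 and 0.79). The difference from controls was 0.026 after median centring, 0.034 with the marker covariate and 0.040 without shock-resistant replicate 1, and that from shock-sensitive rats 0.053 with the covariate. Shock-sensitive rats differed from controls by −0.04 (limma adjusted p = 0.951). Within each array the log2 value of Hdac1 minus that of Hdac2 was −0.22 ± 0.21 in the shock-resistant group, 0.12 ± 0.27 in the shock-sensitive group and 0.11 ± 0.07 among controls (SD, n = 6 each). Its sign has no meaning between 2 features. Its 6 shock-resistant values, −0.55 to −0.027, lay below all 6 control values, −0.0039 to 0.18, by a narrow gap. The shock-sensitive values, −0.18 to 0.55, overlapped both. This difference was chosen after the values were seen and is given with no test. How many other pairs of genes separate these groups was not computed.

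Hdac3, the enzyme of the NCoR and SMRT complex, had group means of 9.91 ± 0.18 in the shock-resistant group, 9.91 ± 0.11 in the shock-sensitive group and 9.94 ± 0.10 among controls (SD, n = 6 each). Its 3 differences lay between −0.031 and −0.004. The 95% intervals of the comparisons with controls ran from −0.19 to 0.13 in both methamphetamine groups. A change of the size seen for Hdac1, −0.26, lies outside them.

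**Figure D2:**
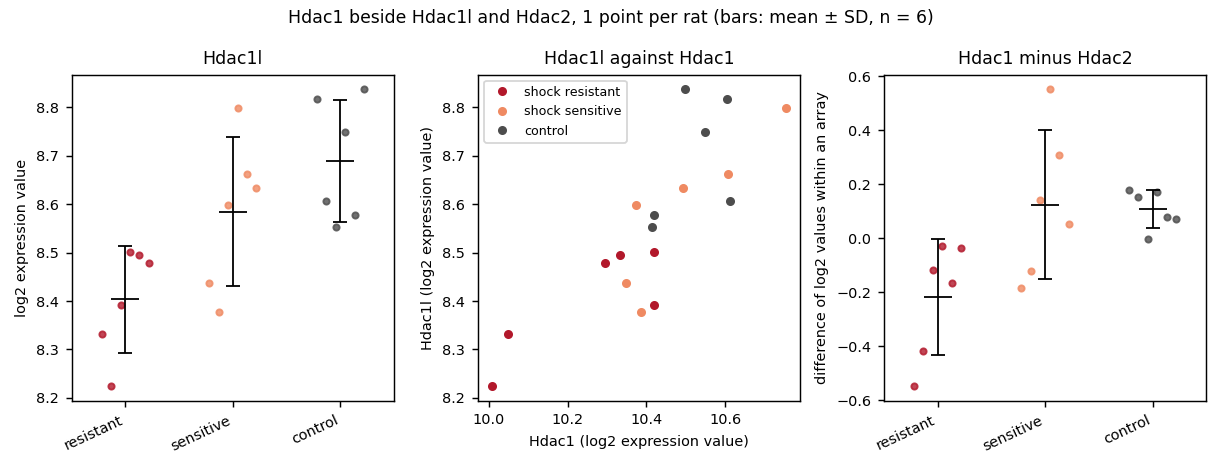
Hdac1l values by group (left), Hdac1l against Hdac1 with 1 point per rat (middle), and the within-array difference of Hdac1 and Hdac2 (right), with mean ± SD of 6 rats per group as bars. Hdac1l runs from 8.22 to 8.50 in shock-resistant rats and from 8.55 to 8.84 in controls. The within-array difference runs from −0.55 to −0.027 in shock-resistant rats and from −0.0039 to 0.18 in controls. Both quantities were chosen after the values were seen.

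Hdac1l, a gene that RefSeq lists separately from Hdac1, also had its lowest mean in shock-resistant rats. It was chosen after the values were seen and is not one of the 10 genes. Its lowest, median and highest values were 8.22, 8.43 and 8.50 in the shock-resistant group, 8.38, 8.62 and 8.80 in the shock-sensitive group and 8.55, 8.68 and 8.84 among controls. All 6 shock-resistant arrays lay below every control, as in 0.172% of all genes. In either direction these groups failed to overlap in 0.688% of all genes. The difference was −0.29 ± 0.074 (SE) against controls and −0.18 against shock-sensitive rats (limma adjusted p = 0.266 and 0.753). Hdac1 and Hdac1l correlated over the 18 arrays with Pearson r = 0.84 and Spearman rho = 0.83, and r was 0.75 without the 2 arrays farthest from the median of Hdac1. The pair was picked with the values known, so no p is given for it. Within shock-resistant, shock-sensitive and control rats r was 0.83, 0.86 and 0.49. RefSeq also lists 18 Hdac1 pseudogenes, of which 1, Hdac1-ps9, was on the array and lay below the negative control median. Whether probes of Hdac1 and Hdac1l bind transcripts of both genes was not tested, so the value of each is uncertain.

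Hdac9, a class IIa gene, had the lower mean in shock-resistant rats within its class. Its lowest, median and highest values were 7.11, 7.37 and 7.43 in the shock-resistant group, 7.26, 7.50 and 7.68 in the shock-sensitive group and 7.39, 7.46 and 7.67 among controls. All 6 shock-resistant arrays lay below the medians of both other groups, and the groups overlapped. The differences were −0.14 ± 0.069 (SE) against controls and −0.15 against shock-sensitive rats (limma adjusted p = 0.441 and 0.769), that against shock-sensitive rats being −0.093 with the marker covariate, and 4e-04 between shock-sensitive rats and controls, or −0.024 after median centring.

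Hdac4 and Hdac5 are class IIa enzymes abundant in brain, and neither had an unadjusted p under 0.05 in any comparison. Hdac4 averaged 8.69 ± 0.12 in the shock-resistant group, 8.60 ± 0.04 in the shock-sensitive group and 8.61 ± 0.06 among controls (SD, n = 6 each). Its difference in shock-resistant rats was 0.081 against controls and 0.088 against shock-sensitive rats (limma adjusted p = 0.535 and 0.787). The value against controls was 0.042 after median centring and 0.12 without shock-resistant replicate 1. Hdac5, the member known from mouse cocaine studies, averaged 10.17 ± 0.11, 10.10 ± 0.09 and 10.11 ± 0.22 in the same group order. Its intervals were −0.12 to 0.24 for shock-resistant rats against controls, −0.18 to 0.17 for shock-sensitive rats against controls, and −0.11 to 0.24 for shock-resistant against shock-sensitive rats. Controls of Hdac5 ranged from 9.92 to 10.48, more widely than either methamphetamine group.

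Hdac7, the remaining class IIa gene, lay below the negative control median in every group, with means of 5.93 ± 0.02 in the shock-resistant group, 5.95 ± 0.04 in the shock-sensitive group and 5.88 ± 0.05 among controls (SD, n = 6 each). Its difference in shock-sensitive rats against controls, 0.067 (interval 0.001 to 0.13, limma adjusted p = 0.807), was the only one of the 10 with an unadjusted p under 0.05 in that comparison, beside 6.09% of all genes and 3.43% of those at or above the negative control median. No gene of the array passed after adjustment there (0%). The count of 1 was 0 without control replicate 2, 3 or 4, any 1 shock-resistant replicate, or shock-sensitive replicate 1, 4 or 5, and 2 without control replicate 1 or 5.

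Hdac6, the tubulin deacetylase, averaged 9.14 ± 0.18 in the shock-resistant group, 9.20 ± 0.10 in the shock-sensitive group and 9.13 ± 0.16 among controls (SD, n = 6 each). Its difference in shock-resistant rats against controls was 0.005, or −0.034 after median centring, with an interval of −0.17 to 0.18. The difference in shock-sensitive rats was 0.069 against controls and that of shock-resistant against shock-sensitive rats −0.064 (limma adjusted p = 0.942 and 0.93). The first of these lay between 0.028, without control replicate 6, and 0.12, without control replicate 2, when 1 array was left out. The second was 0.007 without shock-resistant replicate 6. Its 2 features correlated at 0.994 over the 18 arrays.

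**Figure D3:**
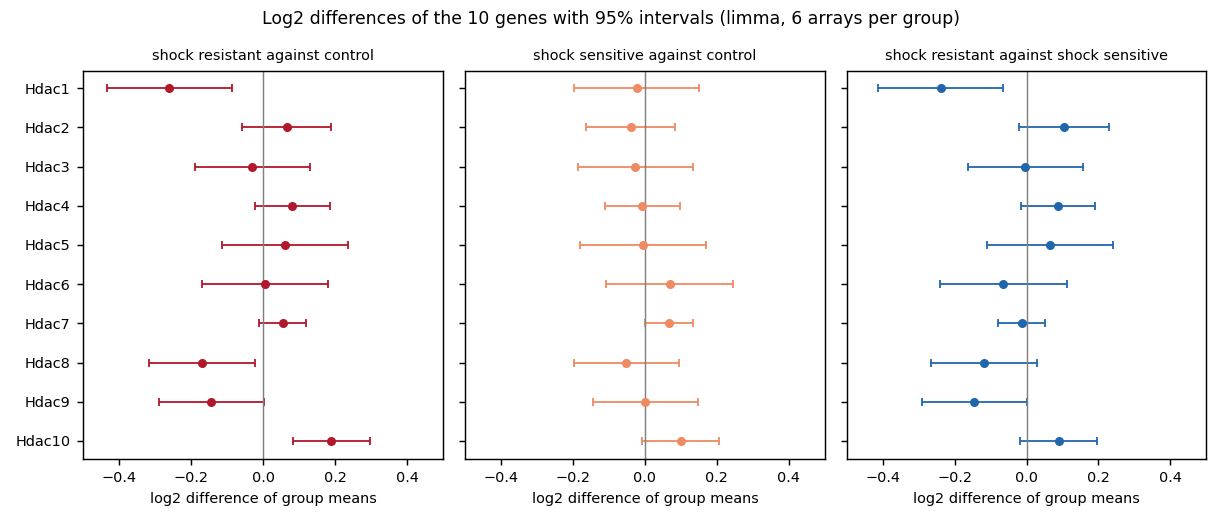
Log2 differences of group means for the 10 genes in the 3 comparisons, with 95% intervals from the limma fit as bars and 0 as the grey line. The intervals of Hdac1, Hdac8 and Hdac10 leave out 0 for shock-resistant rats against controls, that of Hdac7 for shock-sensitive rats against controls, and that of Hdac1 for shock-resistant against shock-sensitive rats. None passed after adjustment over all genes.

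Between the 2 methamphetamine groups, Hdac1 alone of the 10 had an unadjusted p under 0.05, beside 6.4% of all genes and 9.1% of those at or above the negative control median, and no gene of the array passed after adjustment (0%). That count was 2 without shock-resistant replicate 1, 4 or 6 or control replicate 4, 3 without shock-resistant replicate 3 or shock-sensitive replicate 2, and 4 without shock-sensitive replicate 1. For any difference among the 3 groups, Hdac10 and Hdac1 had the smallest p of the family in limma's F test (adjusted p = 0.473 and 0.491). Of all genes 0.00905% passed that test, and 8.61% had an unadjusted p under 0.05, as did these 2. The comparisons share groups, so that the values of one bear on the others. For 0 of the 10 genes did 2 groups fail to overlap, beside 0.688% of all genes for shock-resistant rats against controls, 0.38% for shock-sensitive rats against controls and 0.213% for shock-resistant against shock-sensitive rats.

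Tissue markers moved with some of the 10 genes. Of the 19 medium spiny neuron markers 18 had the higher mean in shock-resistant rats against controls (median difference 0.38) and 17 against shock-sensitive rats (0.60). None of the 19 passed after adjustment, and 1 was below the negative control median. Of the 13 cortical excitatory neuron markers, of which 6 were below that median, 11 were lower in shock-resistant rats than in controls and 11 than in shock-sensitive rats. Their mean ranged from 6.72 to 7.03 in shock-resistant rats, 6.80 to 7.57 in shock-sensitive rats and 6.69 to 7.80 in controls, and that of the medium spiny neuron markers from 11.92 to 12.64, 10.71 to 12.26 and 10.78 to 12.38 in the same order. Lamp5 of the cortical list read 13.66 over all arrays and enters the cortical mean. It was 1 of the 2 cortical markers higher in shock-resistant rats in each comparison, by 0.13 against controls and 0.39 against shock-sensitive rats. In shock-resistant against shock-sensitive rats all 11 oligodendrocyte markers (median −0.15) and 9 of 10 astrocyte markers (−0.13) were lower. So were 7 of 10 microglia (−0.05) and 7 of 10 hypothalamic or septal markers (−0.64). Of 8 endothelial markers 6 were higher, as were 6 of 12 interneuron markers. Against controls 7 of 11 oligodendrocyte markers were lower (−0.012). None passed after adjustment, and their relations to the 10 genes were not tested. With the medium spiny neuron mean as a covariate, Hdac1 differed in shock-resistant rats by −0.19 from controls and by −0.13 from shock-sensitive rats (limma adjusted p = 0.318 and 0.999), and Hdac10 by 0.19 from controls (adjusted p = 0.298).

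Hdac1 was lower where the medium spiny neuron mean was higher, with Pearson r = −0.73 (permutation p = 0.0014, adjusted over 20 relations to 0.028) and Spearman rho = −0.68 (permutation p = 0.0024, adjusted to 0.024) over 18 arrays. Without the 2 arrays farthest from the median of the marker mean, r was −0.66 (permutation p adjusted to 0.061). These permutations ran across the groups, so differences between group means enter p. Within shock-resistant, shock-sensitive and control rats r was −0.81, −0.96 and −0.60 (exact permutation p = 0.042, 0.0042 and 0.2, which became 0.57, 0.25 and 0.86 over 60 relations). Hdac9 had Pearson r = −0.52 (permutation p = 0.033, adjusted to 0.13) and Spearman rho = −0.72 (permutation p = 0.001, adjusted to 0.02), and r was −0.84 without the same 2 arrays. Within the groups in the same order its r was −0.94, −0.60 and 0.05 (exact permutation p = 0.029, 0.19 and 0.95, adjusted to 0.57, 0.86 and 0.98). Hdac2 ran the other way, with r = 0.57 and rho = 0.55, and Hdac8 had r = −0.57 and rho = −0.39. Neither passed over the 20 relations (permutation p adjusted to 0.079 each for r, and 0.13 and 0.38 for rho). The mean of the cortical markers gave 0 relations past the adjusted threshold, the nearest being Hdac9 with r = 0.58 and rho = 0.46 (permutation p adjusted to 0.079 and 0.29, r 0.18 without the 2 farthest arrays).

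**Figure D4:**
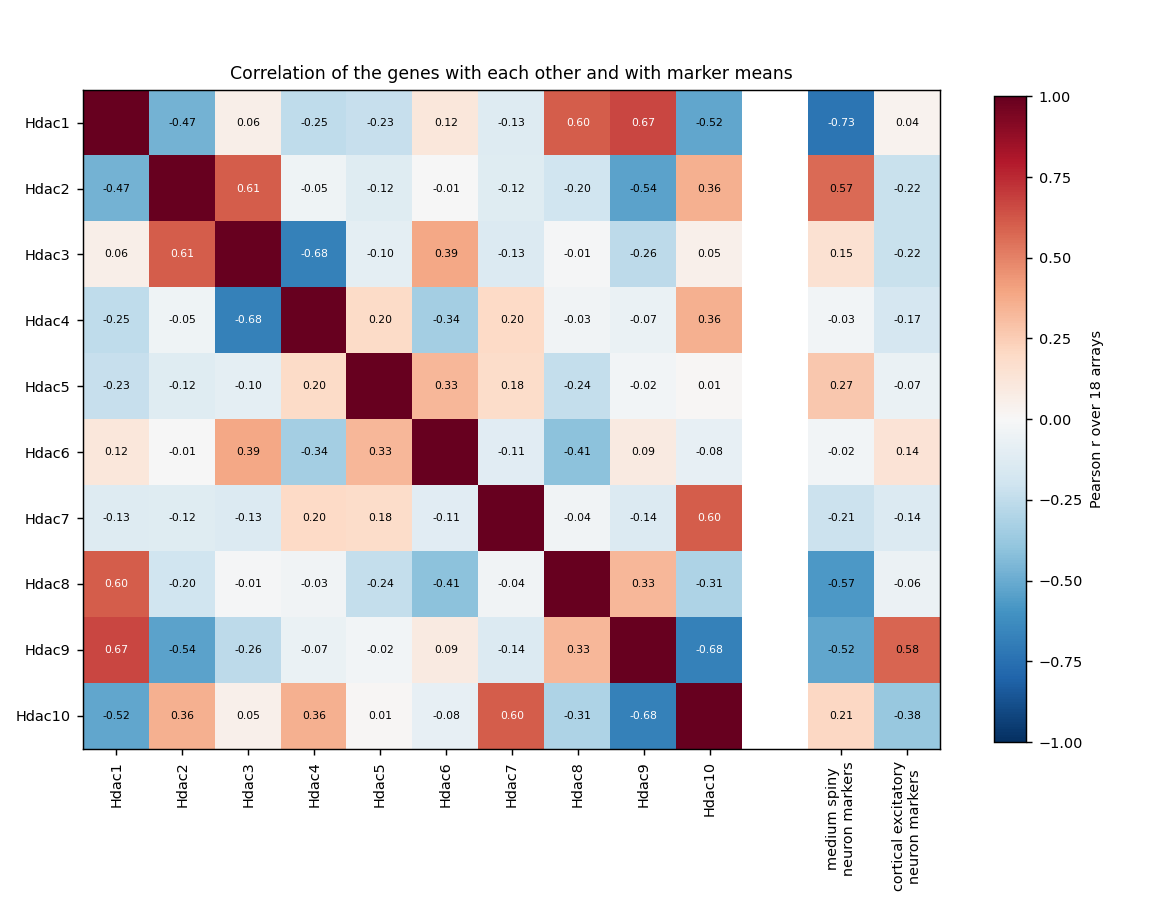
Pearson r over the 18 arrays between each pair of the 10 genes (left block) and between each gene and the mean of 2 marker lists (right block), with red for positive and blue for negative values. Hdac1 and Hdac9 correlate at 0.67 with each other, and at −0.73 and −0.52 with the medium spiny neuron mean.

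Correlations among the 10 genes ran in both directions. Of their 45 pairs 17 correlated positively and 28 negatively over the 18 arrays, and 3 passed after adjustment over the 45. Values were permuted across the groups, so differences between group means enter these p-values. Hdac1 and Hdac9 varied together (Pearson r = 0.67, permutation p = 0.0029, adjusted to 0.044, and Spearman rho = 0.72, permutation p = 0.0011, adjusted to 0.049). Within shock-resistant, shock-sensitive and control rats their r was 0.71, 0.50 and 0.14, and with the group means removed 0.50. Hdac3 and Hdac4 varied inversely (r = −0.68, permutation p = 0.002, adjusted to 0.044, and rho = −0.59, permutation p adjusted to 0.11), and r within the groups in the same order was −0.75, −0.77 and −0.73. Hdac9 and Hdac10 also varied inversely (r = −0.68, permutation p = 0.0019, adjusted to 0.044, and rho = −0.62, permutation p adjusted to 0.11), with r of −0.28, −0.95 and −0.46 within the groups. Without the 2 arrays farthest from the median of the first gene of a pair, r was 0.51, −0.58 and −0.63 for the 3 pairs and 0 of the 45 pairs passed. Hdac2 and Hdac3 had r = 0.61 and rho = 0.59 (permutation p adjusted to 0.073 and 0.11), with 0.84, 0.68 and 0.89 within the groups.

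The genes that work with or against the deacetylases were read from lists chosen by function, and 0 of their members passed over all genes in any comparison. Below the negative control median lay 1 of 16 SIN3 genes and 0 of the NuRD, acetyltransferase and kinase lists, but 47.6% of all genes. The shares of all genes given beside the lists are therefore from an unlike set. Among genes at or above that median the unadjusted share was 9.46% for shock-resistant and 3.43% for shock-sensitive rats against controls. It was 9.1% between those 2 groups, and shares by direction were not computed there. The scaffold and histone-binding subunits of the SIN3 complex lay mostly below controls in shock-resistant rats. Of 16 measured, 13 were lower (median −0.11, beside 0.011 over all genes), and 6 lower and 0 higher had an unadjusted p under 0.05, beside 4.2% and 7.22% of all genes. Ing1, whose product reads methylated histone H3, averaged 7.78 ± 0.10 in shock-resistant rats and 7.98 ± 0.13 in controls (SD, n = 6 each), a difference of −0.21 (limma adjusted p = 0.32). Sap30l and Suds3, further subunits of the complex, differed by −0.17 and −0.11 (limma adjusted p = 0.401 and 0.402). In shock-sensitive rats against controls the list had a median of −0.052 with 2 lower, Ing1 and Sap30l, and 1 higher, Fam60a, at an unadjusted p under 0.05. Fam60a lay below the negative control median. All genes gave 1.53% lower and 4.56% higher there.

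In the NuRD complex, which shares Rbbp4 and Rbbp7 with the SIN3 list, Mbd2 lay lower in both methamphetamine groups. This reader of methylated DNA averaged 12.64 ± 0.05 in the shock-resistant group, 12.65 ± 0.11 in the shock-sensitive group and 12.83 ± 0.09 among controls (SD, n = 6 each). It differed from controls by −0.19 and −0.18 (limma adjusted p = 0.269 and 0.572), with 6 of 6 arrays of each group below the control median, and both comparisons use the same controls. Of the 13 NuRD genes 11 were lower in shock-resistant rats (median −0.054) and 10 in shock-sensitive rats (−0.067), beside 10075 and 9519 of all 22093 genes. In each comparison Mbd2 was the only 1 of the 13 with an unadjusted p under 0.05, beside 11.4% and 6.09% of all genes. The 10 CoREST genes and the 5 genes of the NCoR and SMRT complex had medians of −0.025 and −0.021 in shock-resistant rats against controls, with 0 at an unadjusted p under 0.05. Between shock-resistant and shock-sensitive rats 1 of 16 SIN3, 1 of 13 NuRD, 1 of 10 CoREST and 0 of 5 NCoR and SMRT genes reached it, beside 6.4% of all genes. They were Arid4b of SIN3 (−0.15), Chd5 of NuRD (−0.28) and Rcor3 of CoREST (−0.11), with limma adjusted p of 0.755, 0.769 and 0.753.

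Most histone acetyltransferases add lysine marks that deacetylases remove. The list also holds Naa40 and Naa60, genes of N-terminal acetyltransferases, both lower in shock-resistant rats than in controls (−0.0048 and −0.033). Of 19 genes 15 had a lower mean in shock-resistant rats than in controls (median −0.033), beside 10075 of all 22093 genes. In shock-sensitive rats 16 did (median −0.045), beside 9519 of all genes. In shock-resistant rats 4 had an unadjusted p under 0.05, all lower, beside 4.2% lower and 7.22% higher among all genes. Among the 4 were Taf1 (−0.095), Kat7 (−0.15) and Ncoa3 (−0.11), with limma adjusted p of 0.372, 0.394 and 0.42. In shock-sensitive rats 0 did. Of Hdac11, the class IV enzyme, and the 7 sirtuins, the NAD-dependent deacetylases, 7 of 8 were lower in shock-resistant rats than in controls (median −0.055), with 0 at an unadjusted p under 0.05. Hdac11 averaged 12.33 ± 0.28 in the shock-resistant group, 12.41 ± 0.15 in the shock-sensitive group and 12.24 ± 0.19 among controls (SD, n = 6 each; limma adjusted p = 0.782 and 0.874 against controls).

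**Figure D5:**
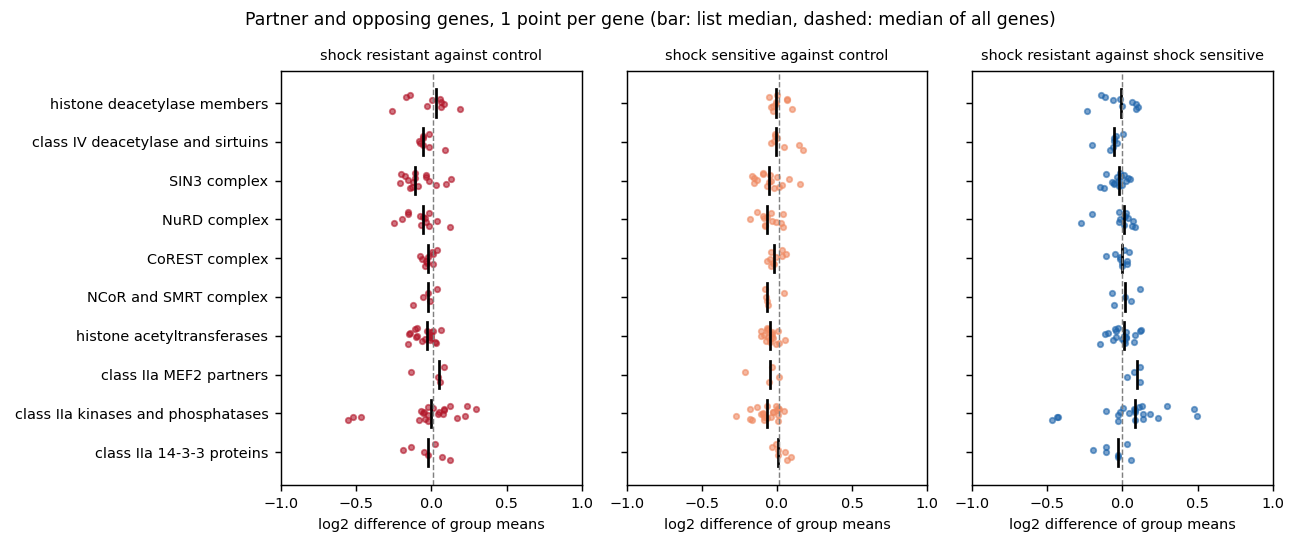
Log2 differences of group means for the 10 histone deacetylases and for lists of partner and opposing genes in the 3 comparisons, with 1 point per gene, the list median as a black bar and the median of all genes as a dashed line. The largest departures are kinases of class IIa deacetylases, with Camk1g at −0.55 and Camk2d at −0.52 for shock-resistant rats against controls.

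Kinases that can phosphorylate class IIa deacetylases gave the largest differences of these lists, in both directions. Camk1g, a calcium and calmodulin-dependent kinase gene, averaged 10.22 ± 0.38 in the shock-resistant group, 10.69 ± 0.16 in the shock-sensitive group and 10.77 ± 0.24 among controls (SD, n = 6 each). It differed in shock-resistant rats by −0.55 from controls and by −0.47 from shock-sensitive rats (limma adjusted p = 0.269 and 0.753). Camk2d differed by −0.52 and −0.43 (limma adjusted p = 0.296 and 0.753). Sik2, a salt-inducible kinase gene, ran the other way at 10.26 ± 0.16 in the shock-resistant group, 9.96 ± 0.06 in the shock-sensitive group and 10.02 ± 0.15 among controls, so that shock-resistant rats stood 0.23 above controls and 0.30 above shock-sensitive rats (limma adjusted p = 0.296 and 0.664). Prkd1, a protein kinase D gene, stood 0.47 above shock-sensitive rats (limma adjusted p = 0.753). Of the 22 kinase and phosphatase genes those with an unadjusted p under 0.05 were 2 higher and 3 lower genes in shock-resistant rats against controls, beside 7.22% and 4.2% of all genes. There were 0 in shock-sensitive rats against controls, and 3 higher and 3 lower genes in shock-resistant against shock-sensitive rats, beside 2.63% and 3.77% of all genes. The part of the medium spiny neuron signal in these values was not tested.

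The binding partners of class IIa deacetylases held no single difference as large as that of Camk1g or Camk2d. The 4 Mef2 genes had a median of 0.05 in shock-resistant and −0.044 in shock-sensitive rats against controls, with 0 at an unadjusted p under 0.05. In shock-resistant against shock-sensitive rats their median was 0.0945, with 4 of 4 higher and again 0 at an unadjusted p under 0.05. The median of the 22 kinase and phosphatase genes was 0.0821 there. Of the 4 Mef2 genes 1 was below the negative control median. Of the 7 genes of the 14-3-3 family, whose products hold phosphorylated class IIa enzymes in the cytoplasm, only Ywhah reached an unadjusted p under 0.05, at −0.19 in shock-resistant rats against both other groups (limma adjusted p = 0.399 against controls and 0.755 against shock-sensitive rats). That is 1 of 7 in each comparison, beside 11.4% and 6.4% of all genes.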

How the data were processed

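The deposited values are on the log2 scale, judged from their range, and Affymetrix Expression Console produced them, per the submitters' processing notes, from 100 ng of RNA per array, per the labels' protocols. The sources used here do not give the authors' normalization, summarisation or filters. Platform gene symbols were updated through gene numbers against RefSeq (GRCr8, names and promoter windows only), which left 22093 genes after the feature with the highest mean was kept for the 1182 genes with several. No filter on low values was applied. Groups came from the labels, which give no batch. One limma fit (version 3.58.1, R 4.3.3) with group as its only term used all 18 arrays, with Benjamini-Hochberg adjustment over all genes at 0.05, and was checked on simulated data. Correlations used 100000 permutations over 18 arrays, or exact permutation within groups (Python 3.11.15, numpy 2.4.6, scipy 1.17.1), all two-sided. The permutations over 18 arrays moved values across the groups and did not hold group fixed. The 10 genes, the gene lists and the tests were chosen with earlier results of these data known. Named genes were the 10, in each list the 3 genes of smallest p at most, if that p was under 0.05 unadjusted, and the gene most like each of the 10. The alternatives are given in the closing section.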

Additional observations from a re-analysis of the deposited data

Results flagged for a closer look

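In 6 of 30 groups (10 genes in 3 groups of 6 arrays) 1 array stood apart from the other 5 by a gap, as a share of the group's range, above Dixon's critical value. Chance gives that in about 5% of groups of normally distributed values without ties. In the controls of Hdac4 and in both flagged groups of Hdac7, 3 of 6 arrays shared exactly 1 value. The 6 of 30 can therefore not be set against 5%. Hdac6 read 8.78 in shock-resistant replicate 6, with the next array at 9.14. Hdac9 read 7.11 in shock-resistant replicate 1, with the next at 7.35. Without that array Hdac9 differed from controls by −0.099 in place of −0.14. Hdac8 read 9.75 in control replicate 1, with the next at 9.47, and Hdac4 read 8.48 in control replicate 2, with the next at 8.63. Hdac7, below the negative control median, read 5.96 in shock-resistant replicate 5 and 6.02 in shock-sensitive replicate 5, with the next arrays at 5.93 and 5.95.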

How the results depend on the processing

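The count of histone deacetylases past the adjusted threshold was 0 in each of the 3 comparisons and in the F test. It stayed 0 in all 119 recomputed counts (smallest limma adjusted p = 0.168, for Hdac10 with array weights). Leaving out shock-resistant replicate 4, the array of high Ttr, was run under 2 names and is counted under both. At an unadjusted p under 0.05 the count for shock-resistant rats against controls, 3, lay between 2 and 4. The differences of Hdac1, −0.30 to −0.19, and Hdac10, 0.15 to 0.21, in that comparison kept an unadjusted p under 0.05 in all 30 alternatives, that of Hdac8 in 23. The count of 1 for shock-sensitive rats against controls was 0 under median centring, all features, genes at or above the negative control median, 2 groups alone, the replicate block, the marker covariate and without shock-resistant replicate 4, the array of high Ttr. For shock-resistant against shock-sensitive rats it was 2 under median centring, the replicate block and without that array, 3 with array weights and 0 with the marker covariate.

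Of 897 recomputed differences 46 changed sign, all in 11 of the 30 results and all with a main value of at most 0.064 in size. The fit without the array of high Ttr enters these counts under 2 names. For Hdac6 in shock-resistant rats against controls the value was −0.034 under median centring, −0.0025 with the mean of features, −9e-04 with the marker covariate, −0.0177 without the 2 arrays of low marker mean and −0.0111 without the array of high Ttr. In shock-sensitive rats against controls, array weights gave 0.0092 for Hdac1, 0.0011 for Hdac3 and 0.0059 for Hdac5, quantile normalization gave 0.0173 for Hdac4 and 0.0163 for Hdac5, and the covariate gave 0.0084 for Hdac5 and −0.0204 for Hdac9. Median centring gave −0.024 for Hdac9, and leaving out the 2 arrays of low marker mean gave −0.0232 for Hdac9 and 9e-04 for Hdac8. With each array left out in turn, the differences for shock-resistant rats against controls ran from −0.0825 to 0.02 for Hdac3 and −0.0361 to 0.0762 for Hdac6. Those for shock-sensitive rats against controls ran from −0.0754 to 0.0056 for Hdac1, −0.0637 to 0.0064 for Hdac3, −0.0323 to 0.0061 for Hdac4, −0.0421 to 0.0683 for Hdac5, −0.0775 to 0.0013 for Hdac8 and −0.0385 to 0.0448 for Hdac9. Those for shock-resistant against shock-sensitive rats ran from −0.0558 to 0.0467 for Hdac3, −0.0904 to 0.0072 for Hdac6 and −0.02 to 0.0016 for Hdac7. Without the 2 arrays farthest on the marker mean, r with the medium spiny neuron mean was −0.66 for Hdac1, no longer past the threshold, −0.84 for Hdac9, now past it, and 0.031 for Hdac6, of changed sign. With the cortical mean it changed sign for Hdac1 (−0.19), Hdac5 (0.32), Hdac7 (0.17) and Hdac10 (0.046). The cause of these changes was not tested.

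Samples of the same replicate number did not deviate together (correlations of −0.31 to 0.30 over 18 pairs, and 5 of 18 arrays correlated best with their own number). The replicate block left 0 of the 10 genes past the threshold in each comparison, with smallest adjusted p of 0.301, 0.854 and 0.748. The number of pairs of the 10 genes that passed, 3, became 0 without the 2 arrays farthest on the first gene, an alternative chosen after seeing the data. The filter at the negative control median leaves out Hdac7, which has no value there.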

Other observations

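The genes whose values followed each histone deacetylase most closely over the 18 arrays were ranked among 10830 other genes at or above the negative control median. Provisional symbols (such as LOC and RGD), microRNA genes and pseudogenes were left out of that ranking. For the class I genes the first was Nedd9 for Hdac1 (Pearson r = 0.96), Med6, a Mediator subunit, for Hdac2 (0.88), Smu1, a splicing factor, for Hdac3 (0.94), and Map2k7, a kinase upstream of JNK, for Hdac8 (0.87). For class IIa it was Mdn1 for Hdac4 (0.77), Ubqln4 for Hdac5 (0.84), Gba2 for Hdac7 (0.80, among 10831 genes) and Mindy2 for Hdac9 (0.92). For class IIb it was Clcn7, a lysosomal chloride transporter, for Hdac6 (0.91) and Csf2ra for Hdac10 (0.80). Each was picked as the highest of many, so no p is given.

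Several arrays held exactly the same deposited value of a gene. Hdac7 read 5.93 in 8 of 18 arrays, Hdac4 8.63 in 6, and Hdac3 and Hdac10 9.91 and 7.30 in 5 each. The 7.30 of Hdac10 was the lowest value of the shock-resistant rats, in 1 array, and the highest of the controls, in 2, and the 10.42 of Hdac1 was shared by 2 shock-resistant arrays and 1 control. Of the 10 genes 7 had 1 value in 3 or more arrays, beside 42.8% of all genes. How the summarisation sets such values was not tested.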
